A study of Mus musculus with 7 samples.

Results

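Macrophage genes were followed in whole colon tumors of mice that carried transplanted bone marrow (BM). The set holds 10 of the 43346 genes in the deposited count table: Csf1r, Adgre1, Cd68, Itgam, Trem2, C1qa, C1qb, C1qc, Mrc1 and Cd14. They were listed by symbol, with earlier results of these data known. All 10 were found in the table and all 10 passed the filter on low counts. The study asked whether blood cells with 1 copy of Dnmt3a deleted, a model of clonal hematopoiesis (CH), alter colitis-associated colon cancer. Donor mice carried the interferon-inducible Mx1-Cre transgene, which was switched on with poly(I:C), either with 1 floxed Dnmt3a allele (giving Dnmt3a+/Δ BM, written Dnmt3a(+/-) in the labels) or with intact Dnmt3a (Dnmt3a+/+ BM). Recipients were lethally irradiated wild-type mice, C57BL6/J of 8 weeks by the labels and a congenic CD45.1 strain of a younger age by the study's methods. The deletion was thus confined by design to the graft, and the host's epithelium, stroma and any radio-resistant host macrophages kept intact Dnmt3a. Every recipient, control mice included, received a single dose of 10 mg/kg azoxymethane (AOM, a colon carcinogen) and then 3 cycles of 3% dextran sulfate sodium (DSS, which injures the colon lining). Poly(A) RNA was sequenced from 4 tumors with Dnmt3a+/Δ BM and 3 tumors with Dnmt3a+/+ BM. The labels call each tumor a biological replicate without naming the animal, so the p-values measure the spread between these tumors.

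Sample descriptions began with BMT18 (Dnmt3a+/+ tumors 1 and 2, Dnmt3a+/Δ tumors 1 and 2) or BMT8 (Dnmt3a+/+ tumor 3, Dnmt3a+/Δ tumors 3 and 4). These prefixes were read as 2 transplantation experiments, which is an inference from the names. Total counts per tumor ran from 38472738 to 64314999 (median 40300780). Levels are given as CPM (counts divided by library size), with library sizes adjusted between tumors by the trimmed mean of M values (TMM). Dnmt3a itself stood at 24.3, 23.1 and 20.2 CPM with Dnmt3a+/+ BM and at 27.7, 43.0, 28.3 and 22.0 CPM with Dnmt3a+/Δ BM, a log2 fold change of 0.43 (SE 0.24, edgeR adjusted p = 0.542). A count over the whole gene in a tumor that is mostly host tissue does not test the deletion in the graft. Dnmt3a+/Δ tumor 2 stood apart from the others in many genes: 24.7% of the 15810 genes tested were highest there. For that reason each macrophage gene's fold change is also given without it.

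Macrophages are phagocytes that most tissues hold in a resident form and that inflamed tissue also gains from blood monocytes. In the adult gut the resident pool is itself renewed from bone marrow monocytes, so a marrow graft is expected to feed both. Their survival depends on signaling through the receptor encoded by Csf1r, and as they mature in tissue they make all 3 chains of the complement starter protein C1q. Mrc1 is commonly used to mark resident or repair-type macrophages, while Cd14 and Itgam are shared with monocytes and neutrophils. In a whole tumor, fewer cells of a type and less RNA per cell cannot be told apart, nor can graft cells and host cells.

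RefSeq promoter sequences (GRCm38.p6) were matched by symbol for 6 of the 10 genes: C1qb, C1qc, Cd68, Itgam, Mrc1 and Trem2. The 250 bases before the RefSeq start were searched. They are printed 5′ to 3′ on the gene's strand for C1qb and C1qc, neighbors whose levels moved together, and for Mrc1, whose level did not follow theirs. In the GENCODE M21 gene models the last 151 bases of the C1qc window and the last 22 of the Mrc1 window already lie inside the gene, and these are left out. The printed stretches are chr4:136886201-136886450 (minus strand) for C1qb, chr4:136893066-136893164 (minus strand) for C1qc and chr2:14229164-14229391 (plus strand) for Mrc1. Capitals mark the motif GAGGAA or, on the other strand, TTCCTC, the core bound by Spi1 (PU.1), the transcription factor that myeloid cells need to form.
C1qb: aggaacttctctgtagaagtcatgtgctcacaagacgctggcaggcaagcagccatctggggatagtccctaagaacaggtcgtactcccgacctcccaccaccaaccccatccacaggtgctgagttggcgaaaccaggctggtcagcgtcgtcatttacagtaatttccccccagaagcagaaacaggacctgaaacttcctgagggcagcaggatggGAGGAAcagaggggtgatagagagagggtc
C1qc: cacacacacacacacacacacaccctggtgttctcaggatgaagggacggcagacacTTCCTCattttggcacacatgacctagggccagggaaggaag
Mrc1: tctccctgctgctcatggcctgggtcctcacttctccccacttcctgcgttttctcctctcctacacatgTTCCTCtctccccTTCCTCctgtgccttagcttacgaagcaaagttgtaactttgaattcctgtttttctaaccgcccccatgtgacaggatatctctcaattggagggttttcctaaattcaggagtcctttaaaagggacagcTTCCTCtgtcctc
The motif occurred 1 time in C1qb and in C1qc and 3 times in Mrc1. It was present in 6 of the 6 promoters matched, against 23.3% of all 32851 mouse promoter windows of the same length. The pattern TGANTCA, a loose form of the AP-1 motif with any base in the middle, was found in 6.75% of all windows. It was present in Cd68 (2 matches, both TGAGTCA) and Trem2 (1 match, TGAATCA). A match is a run of letters and was not tested as a binding site.

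In mm10 coordinates, with the gene models of GENCODE M21, the 3 C1q genes lie side by side on the minus strand of chromosome 4, with C1qb (ENSMUSG00000036905) at 136880129 to 136886187, C1qc (ENSMUSG00000036896) at 136889804 to 136893065 and C1qa (ENSMUSG00000036887) at 136895917 to 136898803. Adgre1 (ENSMUSG00000004730) spans chromosome 17, 57358691 to 57483527, and Trem2 (ENSMUSG00000023992) lies on the same chromosome at 48346401 to 48354147. Csf1r (ENSMUSG00000024621) and Cd14 (ENSMUSG00000051439) are on chromosome 18, at 61100598 to 61132149 and at 36725067 to 36726798. Cd68 (ENSMUSG00000018774) is on chromosome 11 at 69664213 to 69666153, Mrc1 (ENSMUSG00000026712) on chromosome 2 at 14229392 to 14332057, and Itgam (ENSMUSG00000030786) on chromosome 7 at 128062640 to 128118491.

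No macrophage gene differed between the grafts beyond the spread between tumors. Of the 10 genes, 0 were called by edgeR (adjusted p under 0.05 and a fold change over 1 on the log2 scale), as were 0 of all 15810 genes, so 0.0% of the background was called too. At an unadjusted p under 0.05 the count was also 0 of 10, where 11.0% of all genes passed. DESeq2, which called 300 genes (1.87% of those it tested), called 0 of the 10, and 0 of the 10 had an unadjusted p under 0.05 in it, against 8.99% of all genes. The fitted value was above 0 for 8 of the 10 genes, against 50.2% of all genes, with a median log2 fold change of 0.79 against 0.0025 over all genes. Without Dnmt3a+/Δ tumor 2 the median of the 10 was 0.15, with 7 of the 10 above 0 against 53.1% of all genes, and 0 of the 10 had an unadjusted p under 0.05 (7.16% of all genes). The 2 genes with fitted values below 0 were Mrc1 and Cd14.

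The pattern that most of these genes shared was across single tumors and not between the groups. Dnmt3a+/Δ tumor 2 held the highest level of 8 of the 10 genes (all but Mrc1 and Cd14), and for those 8 it was between 2.46 and 4.97 times the median of the other 6 tumors. Over all genes, 12.5% exceeded 2 times that median in this tumor. Dnmt3a+/Δ tumor 1 ranked the second highest for 7 of the 10 genes. At the other end, Dnmt3a+/+ tumor 2 and Dnmt3a+/Δ tumor 4 were each among the lowest 2 tumors for 8 of the 10 genes, so each group held a tumor with low levels. For 0 of the 10 genes were the groups free of overlap, where 12.4% of all genes were.

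**Figure D1:**
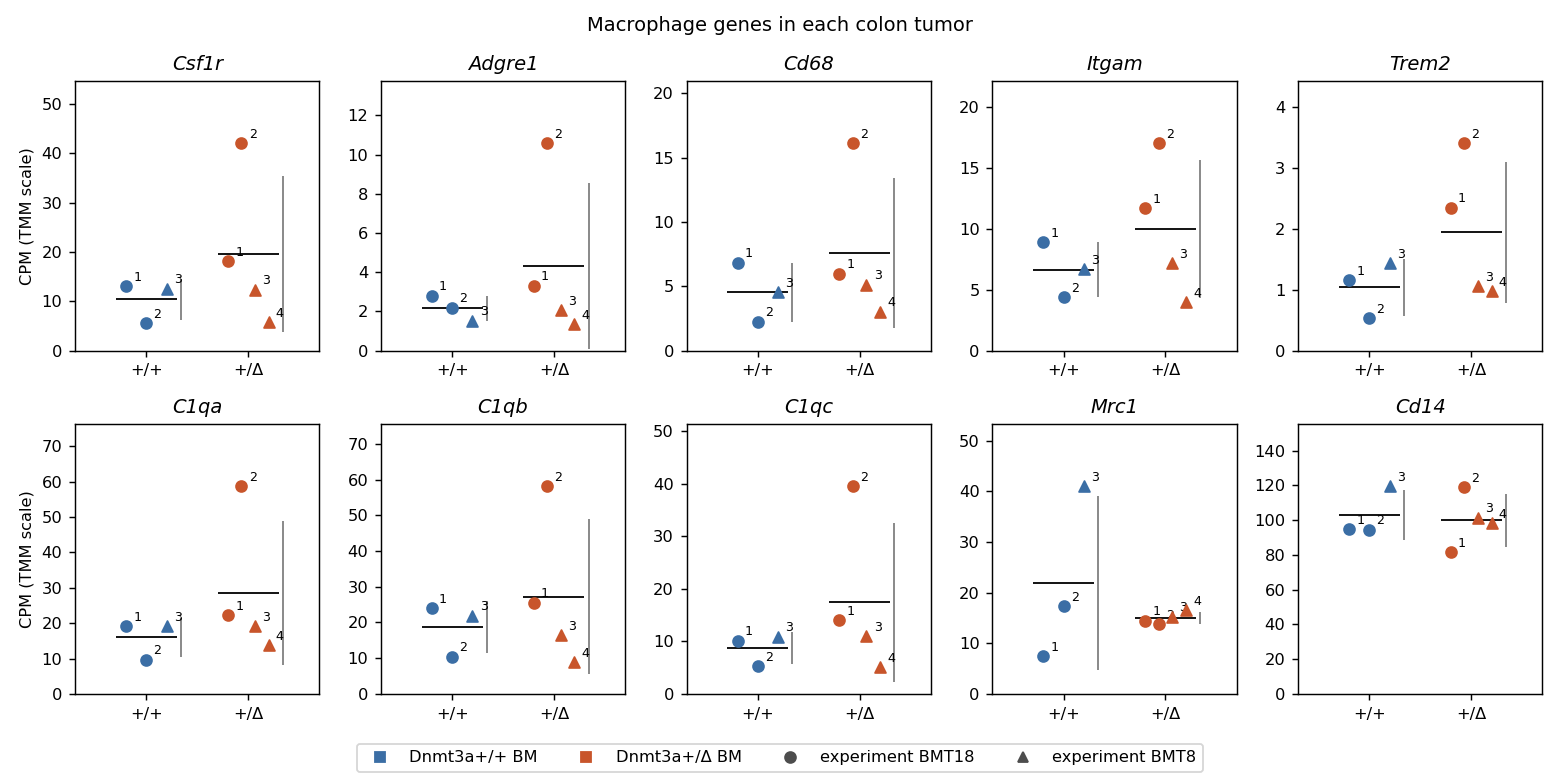
Level of each of the 10 macrophage genes in every tumor, in CPM on the TMM scale (vertical axis, starting at 0), with Dnmt3a+/+ BM in blue and Dnmt3a+/Δ BM in orange. Numbers name the tumors, circles are experiment BMT18 and triangles BMT8, horizontal lines are group means and gray bars span 1 SD either side of the mean. In 8 panels the highest point is Dnmt3a+/Δ tumor 2, and in every panel the groups overlap.

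Csf1r encodes the receptor for the growth factors Csf1 and Il34, on which macrophages depend. Its level was 13.1, 5.62 and 12.6 CPM with Dnmt3a+/+ BM and 18.09, 42.0, 12.4 and 5.81 CPM with Dnmt3a+/Δ BM (10.4 ± 4.18, SD, n = 3, against 19.6 ± 15.8, SD, n = 4). Tumor 2 of the Dnmt3a+/Δ group was higher than any other, tumor 1 of that group was also above the controls, and tumors 3 and 4 were within their range. The log2 fold change was 0.91 (SE 0.65, 95% interval -0.59 to 2.41, edgeR adjusted p = 0.628), and 0.23 without that tumor.

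Adgre1 encodes F4/80, the surface protein classically used to stain mouse macrophages. It was read at 2.79, 2.19 and 1.53 CPM with Dnmt3a+/+ BM and at 3.32, 10.6, 2.07 and 1.35 CPM with Dnmt3a+/Δ BM. Again a single Dnmt3a+/Δ tumor was high and the lowest tumor of all, tumor 4, belonged to the same group. Its log2 fold change of 1.00 was the largest of the 10 in the fit to all tumors (SE 0.72, 95% interval -0.68 to 2.67, adjusted p = 0.635), and it was 0.07 without tumor 2.

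Cd68, which encodes a lysosomal glycoprotein of phagocytes, stood at 6.82, 2.25 and 4.56 CPM with Dnmt3a+/+ BM and at 5.99, 16.1, 5.14 and 3.03 CPM with Dnmt3a+/Δ BM. Apart from Dnmt3a+/Δ tumor 2, the highest tumor was a control. Fitted to all tumors, its log2 fold change was 0.74 (SE 0.63, adjusted p = 0.696), and 0.08 without that tumor. Itgam encodes CD11b, the alpha chain of complement receptor 3, which macrophages share with monocytes and neutrophils. Its level was 8.89, 4.40 and 6.67 CPM with Dnmt3a+/+ BM and 11.7, 17.0, 7.19 and 4.00 CPM with Dnmt3a+/Δ BM. Both BMT18 tumors with Dnmt3a+/Δ BM were above all controls, and tumor 4 was below them all. For Itgam the log2 fold change was 0.58 (SE 0.50, adjusted p = 0.700), and 0.22 without tumor 2.

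The 3 C1q genes encode the chains of the protein that starts the classical complement pathway. C1qa was read at 19.2, 9.71 and 19.1 CPM with Dnmt3a+/+ BM and at 22.3, 58.7, 19.2 and 13.8 CPM with Dnmt3a+/Δ BM. C1qb stood at 23.9, 10.4 and 21.8 CPM with Dnmt3a+/+ BM and at 25.5, 58.1, 16.4 and 8.84 CPM with Dnmt3a+/Δ BM. C1qc was read at 10.1, 5.29 and 10.9 CPM with Dnmt3a+/+ BM and at 14.0, 39.5, 11.0 and 5.14 CPM with Dnmt3a+/Δ BM. All 3 were highest in Dnmt3a+/Δ tumor 2, next in Dnmt3a+/Δ tumor 1, and low in Dnmt3a+/+ tumor 2 and Dnmt3a+/Δ tumor 4. Their log2 fold changes were 0.83 for C1qa (SE 0.52, adjusted p = 0.584), 0.54 for C1qb (SE 0.62, adjusted p = 0.792) and 0.99 for C1qc (SE 0.66, adjusted p = 0.600). Without Dnmt3a+/Δ tumor 2 these became 0.23, -0.13 and 0.22, so C1qb turned direction.

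Trem2 encodes a lipid-sensing receptor found on lipid-laden and tumor macrophages. It was the least abundant of the 10, with counts of 34 to 167 a tumor, at 1.16, 0.531 and 1.44 CPM with Dnmt3a+/+ BM and 2.35, 3.40, 1.06 and 0.973 CPM with Dnmt3a+/Δ BM. The BMT18 tumors with Dnmt3a+/Δ BM were above all others, and the BMT8 tumors with that graft were within the control range. The log2 fold change was 0.91 (SE 0.60, 95% interval -0.49 to 2.30, adjusted p = 0.602). Leaving out Dnmt3a+/Δ tumor 2 brought it to 0.51, the highest such value among the 10 genes.

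Mrc1 encodes the mannose receptor CD206, carried by resident and repair-type macrophages and also by lymphatic endothelium. Its level was 7.44, 17.3 and 41.0 CPM with Dnmt3a+/+ BM and 14.4, 13.7, 15.2 and 16.5 CPM with Dnmt3a+/Δ BM (21.9 ± 17.2, SD, n = 3, against 15.0 ± 1.22, SD, n = 4). The 4 Dnmt3a+/Δ tumors were close together, inside a control group whose tumors spread widely. The log2 fold change was -0.55 (SE 0.49, 95% interval -1.68 to 0.58, adjusted p = 0.710). Without Dnmt3a+/Δ tumor 2 it was -0.48. It depended on single controls: 0.27 without Dnmt3a+/+ tumor 3, and -0.96 without Dnmt3a+/+ tumor 1, where the unadjusted p was 0.0244 (edgeR adjusted p = 0.603) in a fit that put 7.84% of all genes under 0.05.

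Cd14 encodes the co-receptor that hands bacterial lipopolysaccharide to Toll-like receptor 4. It was the steadiest of the 10, at 94.9, 94.5 and 119 CPM with Dnmt3a+/+ BM and at 81.7, 119, 101 and 98.2 CPM with Dnmt3a+/Δ BM. Its highest level was 1.46 times its lowest, where the fold was between 4.25 and 7.82 for the other 9 genes. Its log2 fold change was -0.04 (SE 0.17, 95% interval -0.44 to 0.36, adjusted p = 0.957), and 0.20 when tumors were scaled by library size alone, a scaling that put the median of all genes at 0.21. Without Dnmt3a+/Δ tumor 2 it was -0.11. Which cells supplied the Cd14 RNA was not tested.

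**Figure D2:**
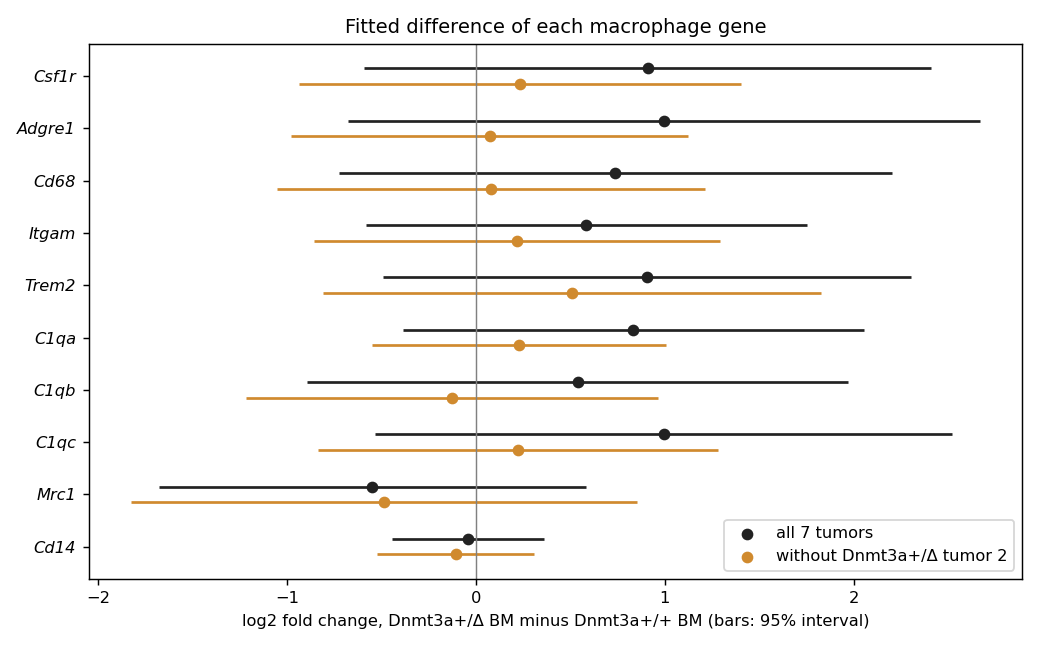
Fitted log2 fold change of each macrophage gene, Dnmt3a+/Δ BM minus Dnmt3a+/+ BM, with its 95% interval (horizontal axis), from all 7 tumors in black and without Dnmt3a+/Δ tumor 2 in orange. All 10 black intervals span 0, and the orange points of all genes but Trem2 and Mrc1 lie between -0.13 and 0.23.

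The 2 experiments gave differences of opposite sign for most of these genes. Within BMT18 the difference of mean log2 CPM was above 0 for 10 of the 10 genes, where 48.7% of all genes were, from 0.06 for Cd14 and 0.31 for Mrc1 up to 1.68 for Csf1r and C1qc and 1.79 for Trem2. Within BMT8 it was under 0 for 9 of the 10, against 50.7% of all genes, with -0.57 for Csf1r, -0.86 for C1qb, -0.49 for Trem2 and -1.36 for Mrc1, the exception being Adgre1 at 0.13. In BMT18 both Dnmt3a+/Δ tumors were above both controls for 7 of the 10 genes, against 23.5% of all genes. In BMT8, with a single control, Dnmt3a+/Δ tumor 4 was below that control for 10 of the 10 genes (47.2% of all genes), and both Dnmt3a+/Δ tumors were below it for 5 of the 10 (35.5% of all genes).

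The difference between the experiments was itself tested as an interaction in edgeR, a fit chosen after the values were seen. The interaction had an unadjusted p of 0.0406 for Trem2, 0.0524 for Mrc1 and 0.0654 for C1qb, and 0 genes of 15810 passed after adjustment (adjusted p = 1.00 for all 10 members). At an unadjusted p under 0.05 it counted 1 of the 10 genes, against 4.62% of all genes. In BMT18 alone, Trem2 had a fitted log2 fold change of 1.79 with an unadjusted p of 0.0433 (edgeR adjusted p = 0.492), the only member of the 10 under 0.05 in that fit, against 9.46% of all genes. BMT8 holds 1 control, so the experiment and the tumor cannot be told apart there.

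**Figure D3:**
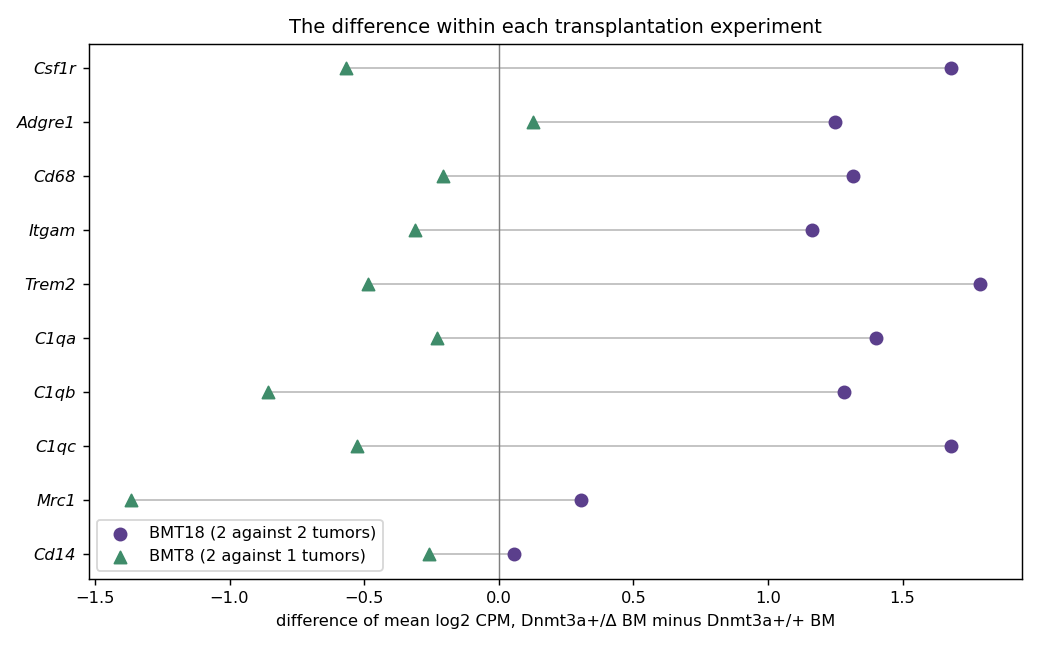
Difference of mean log2 CPM between Dnmt3a+/Δ BM and Dnmt3a+/+ BM for each macrophage gene, within experiment BMT18 (circles, 2 tumors against 2) and within BMT8 (triangles, 2 tumors against 1). The circles of all 10 genes lie above 0 and the triangles of 9 of them below it, with Adgre1 at 0.13.

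Markers of other cells also moved with Dnmt3a+/Δ tumor 2. The summed level of 9 pan-leukocyte markers, among them Ptprc (CD45), was 160, 88.6 and 152 CPM with Dnmt3a+/+ BM and 162, 272, 144 and 88.2 CPM with Dnmt3a+/Δ BM. As for the C1q genes, Dnmt3a+/Δ tumors 2 and 1 had the highest values, and Dnmt3a+/+ tumor 2 and Dnmt3a+/Δ tumor 4 the lowest. All 6 fibroblast markers were highest in that tumor, with a sum of 993 CPM there against 149 to 355 CPM in the others. Of 8 blood endothelial markers 6 were highest there, and their sum was 134 CPM against 14.5 to 62.2 CPM elsewhere. The sum of 9 epithelial markers, dominated by Krt8, was lowest there at 9002 CPM against 12471 to 31399 CPM. The part of these cell types in the macrophage genes' levels was not tested.

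Dividing each gene by the pan-leukocyte sum of the same tumor, a scale added after the values were seen, sets it against leukocyte markers. None of the 10 genes is in that sum, so the ratio is not a share of it. Cd14 stood above the sum in Dnmt3a+/+ tumor 2 (log2 ratio 0.09) and Dnmt3a+/Δ tumor 4 (0.15). On that scale Dnmt3a+/Δ tumor 2 was still highest for 6 of the 10 genes (Csf1r, Adgre1, Cd68, C1qa, C1qb and C1qc), was ranked the second for Itgam and Trem2, the sixth for Mrc1, and was lowest for Cd14. The log2 ratio of C1qa was -3.06, -3.19 and -2.99 with Dnmt3a+/+ BM and -2.86, -2.21, -2.91 and -2.68 with Dnmt3a+/Δ BM. All 4 Dnmt3a+/Δ tumors were thus above the 3 controls, with a difference in means of 0.42, or 0.27 without tumor 2. C1qa was the 1 gene of 10 without overlap on this scale, where 3.28% of all genes had none. Ptpn6, the most abundant marker of the sum, ran only from 27.5 to 43.3 CPM and was highest in Dnmt3a+/+ tumor 3. Whether C1qa stays free of overlap without Ptpn6 in the sum was not tested. Cd68 had a log2 ratio of -4.55, -5.30 and -5.06 with Dnmt3a+/+ BM and of -4.76, -4.07, -4.81 and -4.86 with Dnmt3a+/Δ BM, so that 3 Dnmt3a+/Δ tumors lay close together and tumor 2 above them. Between the groups the difference in mean log2 ratio ran from -0.47 for Mrc1 to 0.57 for Trem2.

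**Figure D4:**
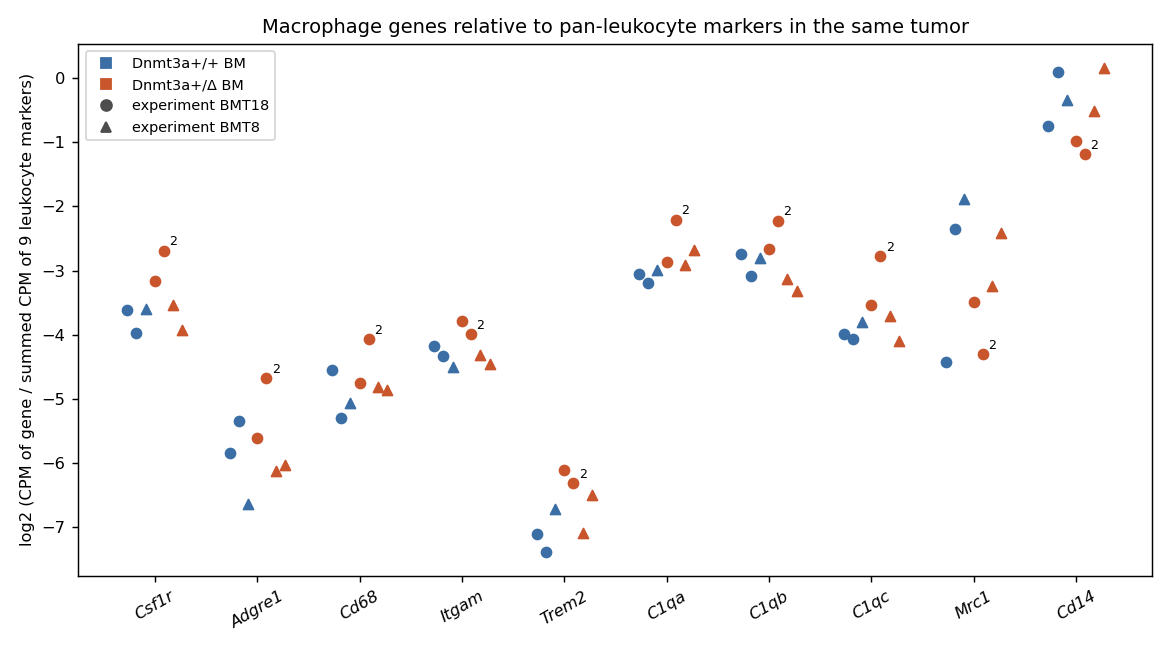
Level of each macrophage gene divided by the summed level of 9 pan-leukocyte markers in the same tumor (vertical axis, log2), colors and shapes as in the plot of levels by tumor, with Dnmt3a+/Δ tumor 2 marked by its number. For C1qa the 4 Dnmt3a+/Δ points lie above the 3 controls, while for the other 9 genes the groups overlap, and for Cd14 tumor 2 is the lowest point.

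Over the 45 pairs of these genes, the pair that kept the steadiest ratio was Csf1r and C1qc, whose log2 ratio stayed between 0.09 and 0.37 in all 7 tumors. The ratio of Adgre1 to Mrc1 varied the most, over a log2 range of 4.37. The log2 ratio of C1qb to C1qc was 1.24, 0.98 and 1.00 with Dnmt3a+/+ BM and 0.87, 0.55, 0.57 and 0.78 with Dnmt3a+/Δ BM. This ratio was lower in every Dnmt3a+/Δ tumor than in any control, and that of Csf1r to C1qb was higher in every one, which made 2 of 45 pairs without overlap against 11.8% of all pairs of tested genes. These ratios share libraries and, in the C1q pairs, neighboring genes.

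The profile of the 10 genes over the tumors, each scaled to mean 0 and SD 1 and then averaged, was used to find the genes most like it. By root mean square distance over the 7 tumors these were Fcgr3 (0.10), Ms4a4a (0.11), Fcgr1 (0.12), Nckap1l (0.13) and BE692007 (0.15). Fcgr3 and Fcgr1 encode Fc receptors for antibody, and Nckap1l encodes a subunit of the actin-regulating WAVE complex in blood cells. Fcgr3, for example, stood at 6.96, 3.82 and 8.60 CPM with Dnmt3a+/+ BM and 7.79, 29.0, 6.50 and 3.81 CPM with Dnmt3a+/Δ BM. It too was highest in Dnmt3a+/Δ tumor 2 and lowest in Dnmt3a+/+ tumor 2 and Dnmt3a+/Δ tumor 4. Its second highest level was in Dnmt3a+/+ tumor 3. Measured against the mean of the other 9, C1qc was the nearest member (0.16), and Cd14 (1.01) and Mrc1 (1.40) were the farthest.

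Compared per length, in TPM (transcript abundance scaled for length and library) computed from the counts and the summed exon length, Cd14 was the most abundant of the 10 in all 7 tumors, with a median of 139 TPM over the tumors. C1qb (44.4 TPM) and C1qa (43.9 TPM) followed and did not differ beyond their spread, C1qb being the higher in 4 of 7 tumors. C1qc (12.5 TPM) and Cd68 (12.1 TPM) came next, with C1qc above Cd68 in 6 of 7. Neither Cd68 and Mrc1 (7.06 TPM) nor Mrc1 and Csf1r (5.40 TPM) kept a steady order, the former being higher in 4 of 7 tumors in each case. Csf1r was above Itgam (4.22 TPM), Itgam above Adgre1 (1.89 TPM) and Adgre1 above Trem2 (0.586 TPM) in all 7 tumors.

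The genes around Csf1r split in direction. Of 10 ligands and myeloid transcription factors, 5 had fitted values above 0 and 5 below, with a median log2 fold change of 0.07, and of -0.01 without Dnmt3a+/Δ tumor 2. Csf1, the main ligand, was read at 7.36, 6.35 and 7.59 CPM with Dnmt3a+/+ BM and at 8.73, 35.4, 11.4 and 8.08 CPM with Dnmt3a+/Δ BM, so every Dnmt3a+/Δ tumor was above every control, as for 6.12% of all genes. Its log2 fold change was 1.16 (SE 0.55, adjusted p = 0.484), and 0.44 without Dnmt3a+/Δ tumor 2. Il34, the other ligand, had a log2 fold change of -0.13 (SE 0.32, adjusted p = 0.924), which turned to 0.11 without Dnmt3a+/Δ tumor 2 and to 0.067 with tumors scaled by library size alone. Cebpb, a transcription factor of inflammatory myeloid cells, had a log2 fold change of -0.97 (SE 0.35, adjusted p = 0.407).

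For C1q's partners, the 6 genes of the C1 proteases and early classical complement, 4 values were above 0, with a median of 0.53 that turned to -0.20 without Dnmt3a+/Δ tumor 2. Serping1, the C1 inhibitor, stood at 58.7 CPM in that tumor against 7.20 to 19.5 CPM in the others. Around Trem2, 8 of 13 signaling and lipid-associated genes had values above 0, with a median of 0.25 and of 0.46 without tumor 2. Lpl, a lipase, was read at 2.18, 1.69 and 1.32 CPM with Dnmt3a+/+ BM and at 4.42, 5.38, 2.97 and 2.62 CPM with Dnmt3a+/Δ BM. Every Dnmt3a+/Δ tumor was above every control for Lpl, with a log2 fold change of 1.15 (SE 0.39, edgeR adjusted p = 0.403), and of 0.97 without tumor 2. The same was true of Msr1, a scavenger receptor, whose 13.2 CPM in tumor 2 compared with 2.50 to 2.73 CPM in the other Dnmt3a+/Δ tumors and 1.28 to 2.23 CPM in controls. Spp1, which encodes osteopontin, spanned 1.75 to 158 CPM (log2 fold change 3.21, SE 1.31, adjusted p = 0.435), and its log2 fold change was 1.80 without tumor 2. Tyrobp, the adaptor through which Trem2 signals, had a log2 fold change of -0.02 (SE 0.49, adjusted p = 0.994), which was -0.44 without tumor 2 and 0.28 with library size alone.

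Of 6 Cd14 and Toll-like receptor partners 3 had values above 0 (median -0.13, and -0.26 without Dnmt3a+/Δ tumor 2), and Tlr4 had a log2 fold change of -0.38 (SE 0.26, adjusted p = 0.610). For Ly96 every Dnmt3a+/Δ tumor (4.43 to 5.57 CPM) was below every control (5.87 to 6.56 CPM), as for 6.32% of all genes. Its log2 fold change was -0.35 (SE 0.23, edgeR adjusted p = 0.605). All 6 beta2 integrin partners of Itgam had values above 0, with a median of 0.65 and of 0.17 without Dnmt3a+/Δ tumor 2. Itgb2, the beta chain that pairs with CD11b, was at 0.59 (SE 0.66, adjusted p = 0.785) and at -0.04 without that tumor. Neutrophils also carry CD11b, and of 10 neutrophil markers 8 were tested, 2 of them with values above 0 (median -0.17, and -0.0078 without Dnmt3a+/Δ tumor 2). The sum of the neutrophil markers ran from 336 to 8474 CPM with Dnmt3a+/Δ BM and from 1700 to 7682 CPM with Dnmt3a+/+ BM. Ltf made up 59.2% of it in Dnmt3a+/Δ tumor 2, where the sum was lowest and Itgam highest, and between 84.6% and 97.5% in the other tumors. The markers did not move together there, since Ly6g was at its lowest in that tumor (64.3 CPM) while Csf3r (8.88 CPM) and Mmp8 (1.41 CPM) were at their highest. Camp had 3 counts or fewer in every tumor. The part of neutrophils in the level of Itgam was not tested.

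Among 15 other pan-macrophage genes 11 had values above 0 (median 0.73, and -0.01 without Dnmt3a+/Δ tumor 2). Ctss, which encodes the protease cathepsin S of antigen-presenting cells, went the other way. It was read at 325, 377 and 292 CPM with Dnmt3a+/+ BM and at 190, 164, 196 and 96.6 CPM with Dnmt3a+/Δ BM, so that every Dnmt3a+/Δ tumor was below every control, as for 6.32% of all genes. Ctss had a log2 fold change of -1.03 (SE 0.26, edgeR adjusted p = 0.361), and DESeq2 called it with an adjusted p of 0.0481. Ctss was the only gene of the lists around the 10 members, those of other cell types aside, that either tool called. In Dnmt3a+/Δ tumor 2, where 8 of the 10 members were highest, Ctss was at 0.67 times the median of the other 6 tumors. Which cells supplied the Ctss RNA was not tested.

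Resident and inflammatory markers were set side by side. Of 14 resident macrophage genes 10 were tested and 6 had values above 0, with a median log2 fold change of 0.37 and of 0.13 without Dnmt3a+/Δ tumor 2. Cd163, Timd4 and Vsig4, which mark long-lived resident macrophages, were under 1 CPM in every tumor, Vsig4 at 3 counts or fewer. Cx3cr1, a chemokine receptor of gut macrophages, had a log2 fold change of 1.01 (SE 0.47, adjusted p = 0.480). Of 14 inflammatory monocyte and macrophage genes 6 had values above 0, with a median of -0.04, and 1 of 14 was above 0 without tumor 2 (median -0.59). Saa3, an acute-phase protein, was the exception, with a log2 fold change of 1.59 in all tumors (SE 0.62, adjusted p = 0.426). Neither list held a gene called by either tool, and no test of the difference between the lists was made. Dnmt3a+/Δ tumor 2 was highest for 9 of 14 inflammatory and 4 of 10 resident genes, against 24.7% of all genes. Arg1 and Plac8 of the inflammatory list were at their lowest there. They stood at 397 and 394 CPM, against 412 to 3216 and 708 to 1688 CPM in the other tumors. The part of macrophages in the levels of these lists was not tested.

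**Figure D5:**
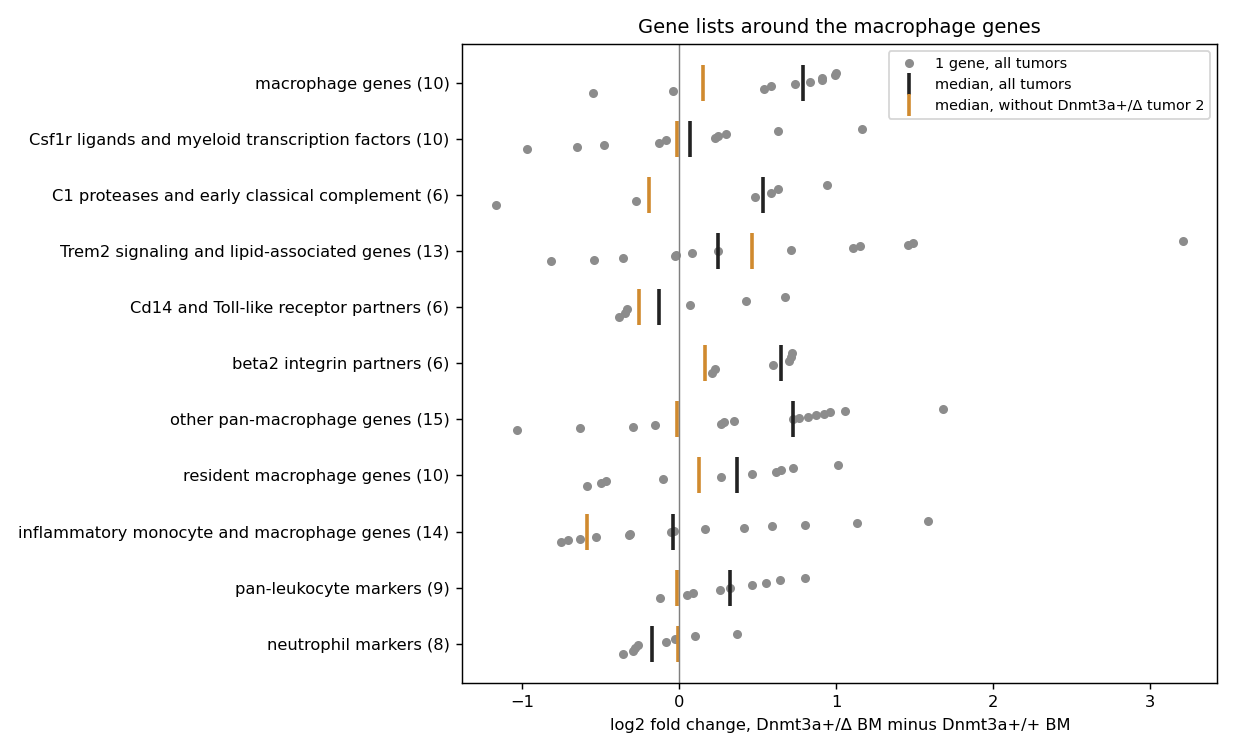
Fitted log2 fold change, Dnmt3a+/Δ BM minus Dnmt3a+/+ BM (horizontal axis), of each tested gene in the macrophage set and in 10 gene lists around it, with the number of genes tested in brackets. Gray points are genes, black bars are medians from all tumors and orange bars medians without Dnmt3a+/Δ tumor 2, which lie at 0.79 and 0.15 for the macrophage genes and at -0.04 and -0.59 for the inflammatory genes.

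Blood and lymphatic endothelial markers were the lists whose sums did not overlap between the grafts. The blood endothelial sum was 31.3 to 134 CPM with Dnmt3a+/Δ BM against 14.5 to 28.3 CPM with Dnmt3a+/+ BM, and all 8 of its genes had values above 0, with a median log2 fold change of 1.74, and of 1.202 without Dnmt3a+/Δ tumor 2. The lymphatic sum was 135 to 207 CPM with Dnmt3a+/Δ BM and 60.8 to 85.3 CPM with Dnmt3a+/+ BM. Its separation came with Prox1, at 60.3 to 177 CPM against 25.7 to 32.9 CPM. Without Prox1 the sums of the other 5 lymphatic markers overlapped, at 29.3 to 74.8 CPM against 35.1 to 52.4 CPM. The part of lymphatic endothelium in the level of Mrc1 was not tested.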

How the data were processed

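Poly(A)-selected directional libraries from 7 whole colon tumors were sequenced. By the labels and the study's methods, the authors trimmed reads with Trimmomatic, checked them with FastQC, aligned them to mm10 with STAR and deposited RSEM estimated counts per gene. The deposited table held whole numbers, used as they stood. Of 43346 genes, 18994 had 0 counts in all tumors, and 42462 identifiers matched a symbol. Groups came from the labels, and experiments were inferred from the prefixes of the sample descriptions. The main test was the quasi-likelihood test of edgeR 4.0.16 (R 4.3.3) with TMM factors, its filter on low counts, graft as the only term and Benjamini-Hochberg adjustment over 15810 genes. DESeq2 1.42.0, other scalings and filters, an experiment term, a replicate block, BMT18 alone and leaving out each tumor were alternatives. The interaction, DESeq2 without Dnmt3a+/Δ tumor 2, the pan-leukocyte scale and the lymphatic sum without Prox1 were added after the data were seen. The code was tested on simulated data.

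The members and the gene lists were chosen with earlier results of these data known, so no list was tested as a set. Named were the 10 members, 6 direct partners (Tyrobp, Csf1, Il34, Itgb2, Tlr4 and Ptprc), at most the 3 genes of lowest p in each list and the 5 genes of nearest profile. Krt8, Ltf, Camp, Csf3r, Ptpn6, Cd163, Timd4, Vsig4 and Arg1 were named outside this rule, after their values were seen. Depth ran from 38472738 to 64314999 counts a tumor. Counts of the members ran from 34 to 6052 a tumor and were lowest for Trem2 (34 to 167) and Adgre1 (50 to 519). Counting error was not compared with the spread between tumors. GENCODE M21 gave positions and lengths, and RefSeq the promoters.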

Additional observations from a re-analysis of the deposited data

Results flagged for a closer look

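In the Dnmt3a+/Δ group, 1 tumor stood far from the other 3 for 2 of the 36 values examined, by Dixon's test at its 95% critical value. Such flags arise by chance in about 1 in 20 groups, or 1.8 of 36. The log2 ratio of Cd68 to the pan-leukocyte sum was -4.07 in Dnmt3a+/Δ tumor 2 and between -4.86 and -4.76 in the other 3. Csf1 was read at 35.4 CPM in the same tumor and between 8.08 and 11.4 CPM in the other 3. In the 3 controls, too few for this check, Csf1 was between 6.35 and 7.59 CPM.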

How the results depend on the processing

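No macrophage gene was called under any of the 15 alternatives. The median log2 fold change of the 10 was 0.79, between 0.15 (without Dnmt3a+/Δ tumor 2) and 1.03 (without Dnmt3a+/Δ tumor 4) when each tumor was left out in turn, and 1.09 with library size only, where the median of all genes was 0.21. Over all genes, edgeR called 0 (1744 at an unadjusted p under 0.05) and DESeq2 called 300, or 171 without Dnmt3a+/Δ tumor 2. The median of the Trem2 list was 0.69 with an experiment term and 0.70 in BMT18 alone, and from 0.018 to 0.95 with each tumor left out. In BMT18 alone the median of the Cd14 list was 0.16 and that of the inflammatory list 0.67.

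Single genes turned direction under some alternatives. With library size only, Cd14 was at 0.20, Il34 at 0.067 and Tyrobp at 0.28. Tyrobp was at 0.00037 with DESeq2-type size factors and at 0.0023 with no filter. In BMT18 alone Mrc1 was at 0.20, Cd14 at 0.10, C2 at 0.49 and Tyrobp at 0.70. In DESeq2 without Dnmt3a+/Δ tumor 2, C1qb was at -0.13, C4b at -0.20, Chil3 at -0.25, Il34 at 0.081, Itgb2 at -0.042, Lyz2 at -0.023, Ptprc at -0.062 and Serping1 at -0.0012. With each tumor left out in turn, the log2 fold change ran from -0.13 to 0.83 for C1qb, -0.96 to 0.27 for Mrc1, -0.11 to 0.079 for Cd14, -0.44 to 0.28 for Tyrobp, -0.055 to 0.63 for Ptprc, -1.54 to 0.053 for C2, -0.19 to 1.00 for C4b, -0.24 to 1.51 for Chil3, -0.36 to 0.11 for Il34, -0.040 to 0.91 for Itgb2 and -0.012 to 2.02 for Lyz2. The cause of these shifts was not tested.

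The replicate numbers did not pair the tumors throughout: same-numbered tumors had correlations of their deviations of 0.57, 0.07 and -0.04. Dnmt3a+/+ tumor 1 was most like Dnmt3a+/Δ tumor 1. Dnmt3a+/+ tumors 2 and 3 were most like Dnmt3a+/Δ tumors 3 and 4. With the replicate number as a block, 0 macrophage genes were called, and among the named genes Tyrobp alone turned direction, to 0.15.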
